A study of Danio rerio with 12 samples.

Results

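Blood and early leukocyte genes were followed in zebrafish embryos in which both pbx2 and pbx4 were targeted. The set holds 7 genes, of which gata1a is a red cell gene and lcp1 and spi1b are leukocyte genes. The gene alox5b.3, of a lipoxygenase family, is listed with the leukocyte genes, and gata2a, tal1 and lmo2 act in several blood lineages. Members were found by their symbol in the platform annotation, where 8 of 15502 tested probe sets carry only one of these symbols, 2 of them for spi1b. The 7 genes stand among 8793 genes with a symbol of their own on the array. They were selected on their differences between morphants and controls and their change with stage in these same arrays. Their values are therefore given as a description, with differences and standard errors of the model and with no p-value. A difference of 1 on the log2 scale is a doubling.

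RNA came from Danio rerio embryos of 2 segmentation stages, 10 somites and 18 somites. Morphants had received pbx2-MO and pbx4-MO, morpholinos, which are antisense oligomers against a transcript's translation start or splice sites. Controls had received a control morpholino, which the labels call pbx2 mutant, so embryos of all 4 groups were injected with a morpholino at the 1-2 cell stage. There were 3 arrays in each of the 4 groups and 12 arrays in all. Strain and morpholino dose are not given in the sources used here, and neither is the number of embryos behind an array.

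The first blood cells of the zebrafish embryo come from lateral mesoderm. Its posterior part gives mainly red cells and its anterior part mainly leukocytes. The bHLH factor encoded by tal1 and its partner, the LIM-only adaptor encoded by lmo2, are needed for blood and vessel precursors in both parts. The GATA factor Gata1a drives the red cell programme, the ETS factor Spi1b (Pu.1) drives the myeloid one, and each is known in zebrafish to restrain the other. Pbx proteins are TALE homeodomain factors that bind DNA with Hox proteins and other partners.

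Array medians ran from 7.289 to 7.313 at 10 somites and from 6.518 to 6.569 at 18 somites, so the stages do not share a scale. Differences between morphants and controls are given within a stage as deposited. Changes with stage are given after each array's median was subtracted, called median-centred below. Arrays of 1 group correlated between 0.995 and 0.998. Probe sets for 8 artificial tag sequences, foreign to the fish, had group means from 4.18 to 6.13 at 10 somites (controls) and from 3.62 to 5.25 at 18 somites, and this span is called the tag range. Over all 17 tag probe sets the upper end was 6.54 and 5.78. The targeted genes pbx2 and pbx4 had higher signals in morphants at both stages (log2 differences of 1.75 and 0.45 at 10 somites, limma adjusted p = 7.05e-07 and 0.00606, and 1.63 and 0.34 at 18 somites, adjusted p = 1.41e-06 and 0.0192). Transcript level does not check a morpholino knockdown. In embryos taken as a whole, fewer cells of a type and less RNA per cell cannot be told apart.

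At 10 somites 4 of the 8 member probe sets were past an adjusted p of 0.05 in the fit over all probe sets, against 8.17% of all probe sets. These were lcp1, alox5b.3 and gata1a, lower in morphants, and gata2a, higher. At 18 somites 4 were past it, against 12.5% of all, namely lcp1, lower, and gata2a and both spi1b probe sets, higher. The members were picked with these contrasts known, so nothing is read from either share. The ranges of the morphant and control arrays did not overlap for 5 of 8 member probe sets at 10 somites (28.4% of all probe sets) and for 4 at 18 somites (28.1% of all).

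The call of lcp1 at 10 somites was made under all 20 other settings tried, those of gata1a and gata2a under 11 of 20 each and that of alox5b.3 under 8 of 19. The count of 4 was 2 without the control array at 10 somites numbered 1, 2 or 3, or without the morphant array at 10 somites numbered 2, and 1 without the one numbered 3. It was also 1 without the control or the morphant array at 18 somites numbered 1, which enter only through the shared estimate of the spread. At 18 somites the count stayed at 4 whichever array was left out. With same-numbered arrays as a block, 5 member probe sets were past the threshold at 10 somites (13.2% of all probe sets) and 4 at 18 somites (18.1% of all).

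**Figure D1:**
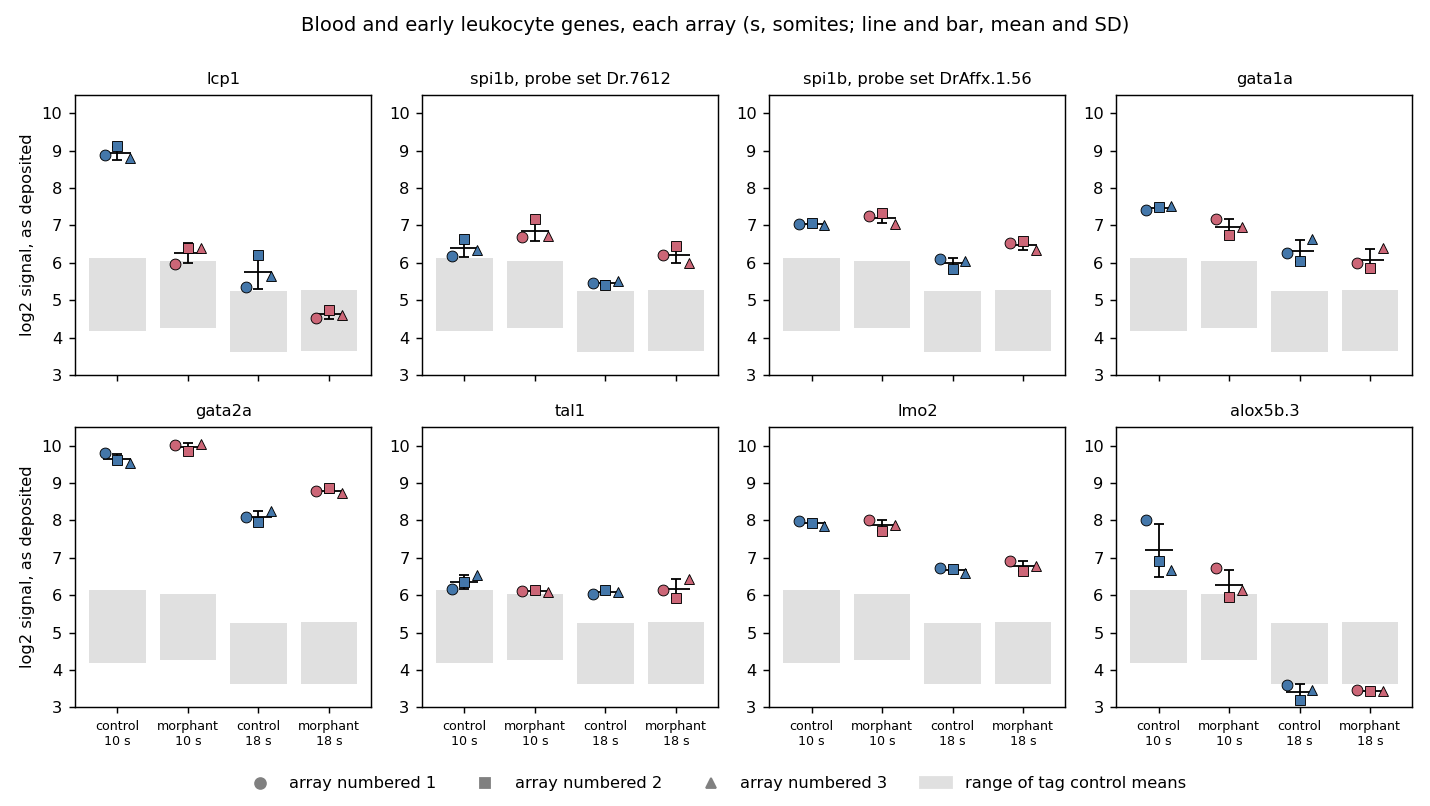
Log2 signal as deposited of each member probe set on every array, by group (s, somites; symbols give the array's replicate number; line and bar, mean and SD of 3 arrays; grey, range of the group means of 8 tag control probe sets). The 3 control values of lcp1 at 10 somites lie between 8.79 and 9.13, far above the morphant values, while lmo2 values of morphants and controls overlap at both stages.

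The red cell factor gene gata1a gave control signals of 7.41, 7.49 and 7.52 at 10 somites, in the order of replicate numbers, and morphant signals of 7.17, 6.74 and 6.96. All 3 morphant arrays lay below all 3 control arrays, and the controls were much closer together than the morphants. The difference was -0.52 ± 0.15 (standard error, n = 3 per group), a 1.43-fold lower signal. At 18 somites control signals were 6.27, 6.06 and 6.63 and morphant signals 5.99, 5.88 and 6.39, a difference of -0.23 ± 0.15. There the groups overlapped, and the difference was not past the threshold in the main fit or under any of 20 other settings, the replicate block included. Arrays with the same number nonetheless kept a similar distance, with morphant minus control at -0.28, -0.19 and -0.23, because the arrays numbered 3 were the highest of both groups and those numbered 2 the lowest.

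None of the 25 other measured red cell genes passed the test at either stage. With same-numbered arrays as a block 2 were called at 10 somites, both lower, and at 18 somites 2 lower and 1 higher. Beside hbae3 these were blvrb at 10 somites (-0.36, limma adjusted p = 0.0811, and 0.0172 with the block) and cahz at 18 somites (-0.23, 0.3 and 0.0266). The one that was higher was tmem14ca. The summed linear signal of the 25 genes at 10 somites was 9575 to 10373 in controls. It was 8964 to 9542 in morphants, lower on every morphant array. At 18 somites the sums of 7757 to 8461 and 6555 to 8564 overlapped. Bright genes weigh most in such a sum, such as prdx2 (11.48 in controls at 10 somites). At 10 somites the sums of the other myeloid genes overlapped (11822 to 13065 in controls, 11597 to 12442 in morphants). So did those of the other shared blood genes (7751 to 8104 and 7605 to 7930). By far the brightest gene in the myeloid sum was the cathepsin gene ctss2.1 (13.31 in controls at 10 somites). The overlap of that sum therefore says little of the remaining myeloid genes. Of the 25 red cell genes 3 were at an unadjusted p under 0.05 at 10 somites and 2 at 18 somites. The median difference of the 25 was -0.054 at 10 somites and -0.033 at 18 somites, beside -0.0045 and 0.001 over all probe sets. The alpha globin gene hbae3 was at -0.59 ± 0.25 at 10 somites (limma adjusted p = 0.182) and -0.52 ± 0.25 at 18 somites (adjusted p = 0.215). A second hbae3 probe set gave -0.51 and -0.55 (with the block, adjusted p = 0.052 and 0.0301). With same-numbered arrays as a block hbae3 was called at both stages (adjusted p = 0.0142 and 0.0203), and without the morphant array at 18 somites numbered 2 it was called at 10 somites (0.0467). The difference at 18 somites was -0.15 without that array. The beta globin gene hbbe3 was at -0.38 ± 0.21 and -0.31 ± 0.21 (adjusted p = 0.33 and 0.407), the latter at -0.002 without the same array. The haem synthesis genes alas2, whose product starts the pathway in red cells, and urod were at 0.097 and 0.086 at 10 somites and -0.11 and -0.037 at 18 somites. The anion exchanger gene slc4a1a (-0.037 and -0.13), the zinc finger gene klf17 (-0.22 and 0.080) and nfe2 (-0.060 and -0.10), which encodes a globin regulator, were not called either. The signals of slc4a1a (3.99 in controls at 10 somites) lay at or below the tag range. Control means of nfe2 (5.88 and 5.24) lay within it, where background can hide a difference.

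The GATA factor gene gata2a acts in early blood and vessel precursors and is also known in zebrafish from ectoderm and neurons. Its control signals at 10 somites were 9.79, 9.62 and 9.54, and its morphant signals 10.01, 9.86 and 10.04. Every morphant array was higher than every control array, by 0.32 ± 0.09 on the group means. At 18 somites controls gave 8.10, 7.96 and 8.25 and morphants 8.78, 8.87 and 8.74, a difference of 0.70 ± 0.09 or 1.62-fold. The groups were again apart, with a wider gap than at 10 somites. The differences of gata1a and gata2a had opposite signs at 10 somites, also under all 21 alternatives.

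At 10 somites tal1 gave control signals of 6.17, 6.35 and 6.54 and morphant signals of 6.10, 6.13 and 6.08. The morphant values sat just under the lowest control, at -0.25 ± 0.11. At 18 somites controls gave 6.04, 6.13 and 6.09 and morphants 6.15, 5.93 and 6.43, a difference of 0.086 ± 0.11 with overlapping groups. At 10 somites the tal1 values lay between the upper end of the tag range (6.13 in controls, 6.04 in morphants) and that of all 17 tag probe sets (6.54 and 6.56), so background can make its differences smaller. For lmo2 the control signals were 7.99, 7.94 and 7.84 at 10 somites and 6.74, 6.70 and 6.61 at 18 somites. The morphant signals were 8.02, 7.72 and 7.87 at the earlier stage and 6.90, 6.66 and 6.78 at the later one. The groups overlapped at both stages, and the differences of -0.051 ± 0.09 and 0.099 ± 0.09 were about the size of their errors.

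Among 16 other shared blood genes 1 fell and none rose at 10 somites, and 2 rose and none fell at 18 somites. Their medians were -0.0087 and 0.056. The one that fell was cdx1a, a caudal homeobox gene of the posterior body whose family is needed for blood formation in zebrafish, from a mean of 7.07 to 6.56 (-0.51 ± 0.11, limma adjusted p = 0.0099). It was at -0.24 ± 0.11 at 18 somites (adjusted p = 0.183). At 18 somites the receptor tyrosine kinase gene kita rose by 0.27 ± 0.07 (adjusted p = 0.0307) and hhex, a homeobox gene of early vessel and endoderm cells, rose by 0.26 ± 0.07 (adjusted p = 0.0301). The kita means of 4.67 and 4.94 lay within the tag range.

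Those calls at 18 somites were not stable. Leaving out control array 2 or 3 of that stage took the kita call away (adjusted p = 0.122 and 0.0569), and so did leaving out morphant array 1 or 3 (0.078 and 0.0892). For hhex the same held of control arrays 1 and 2 (0.0646 and 0.117) and morphant arrays 1 and 3 (0.0782 and 0.102). Without the 4 arrays numbered 1, cdx1a was at an adjusted p of 0.104. The definitive blood stem cell genes runx1 and myb were at 0.00 and -0.17 at 10 somites and 0.13 and 0.051 at 18 somites. The lymphoid factor gene ikzf1 was at -0.22 ± 0.07 at 10 somites (adjusted p = 0.0789, and 0.0452 with the replicate block) and 0.048 at 18 somites, and drl, a zinc finger gene of lateral mesoderm, was at -0.088 and -0.16. None of these was called at either stage without the block. Control means of runx1 (4.79 and 4.21) and that of ikzf1 at 10 somites (5.63) lay within the tag range, where background can hide a difference.

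The myeloid factor gene spi1b has 2 probe sets. The first gave control signals of 6.18, 6.64 and 6.36 and morphant signals of 6.70, 7.18 and 6.71 at 10 somites. At 18 somites these were 5.47, 5.41 and 5.52 in controls, just above the tag range, with morphants at 6.22, 6.45 and 6.00. Morphants were higher than controls on every array of both stages, by 0.47 ± 0.14 and 0.76 ± 0.14. With the replicate block the first probe set was also past the threshold at 10 somites. The second gave 7.05, 7.08 and 7.01 in controls at 10 somites, and its morphants, at 7.26, 7.33 and 7.04, had 1 array inside the control range. At 18 somites it gave control signals of 6.09, 5.83 and 6.04, all below the morphant signals of 6.52, 6.58 and 6.34. Its differences were 0.17 ± 0.09 and 0.49 ± 0.09, smaller than those of the first probe set at both stages. Between arrays of the same number the morphant was the higher one in 12 of 12 pairs over both probe sets and stages, which share their arrays.

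The gene lcp1 encodes L-plastin, an actin-bundling protein of leukocytes. Its control signals at 10 somites were 8.87, 9.13 and 8.79, and its morphant signals 5.96, 6.41 and 6.41. No other member had morphants and controls so far apart at that stage. The difference was -2.67 ± 0.18, a 6.37-fold lower signal, and pairs of arrays with the same number gave -2.91, -2.72 and -2.38. At 18 somites controls gave 5.36, 6.21 and 5.66 and morphants 4.52, 4.74 and 4.61. All morphants were again below all controls, at -1.12 ± 0.18 or 2.17-fold. The morphant mean of 6.26 at 10 somites lay just above the tag range on those arrays, which ended at 6.04, and below the highest of all 17 tag probe sets (6.56). The morphant mean of 4.62 at 18 somites lay inside the range (3.63 to 5.28). Background can therefore make both differences too small.

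The gene alox5b.3 belongs to the arachidonate 5-lipoxygenase family, whose mammalian member starts leukotriene synthesis in leukocytes. Its control signals at 10 somites were 8.001, 6.91 and 6.68, and its morphant signals 6.73, 5.95 and 6.14. The morphant array numbered 1 lay within the control range, and in both groups the array numbered 1 was the highest. The difference of -0.92 ± 0.26 came from pairs at -1.27, -0.96 and -0.54, and its error was 0.12 with the replicate block. It was -0.52 without the control array numbered 1. At 18 somites all 6 arrays read between 3.197 and 3.605, below the lowest tag probe set, and the difference was 0.021 ± 0.26.

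**Figure D2:**
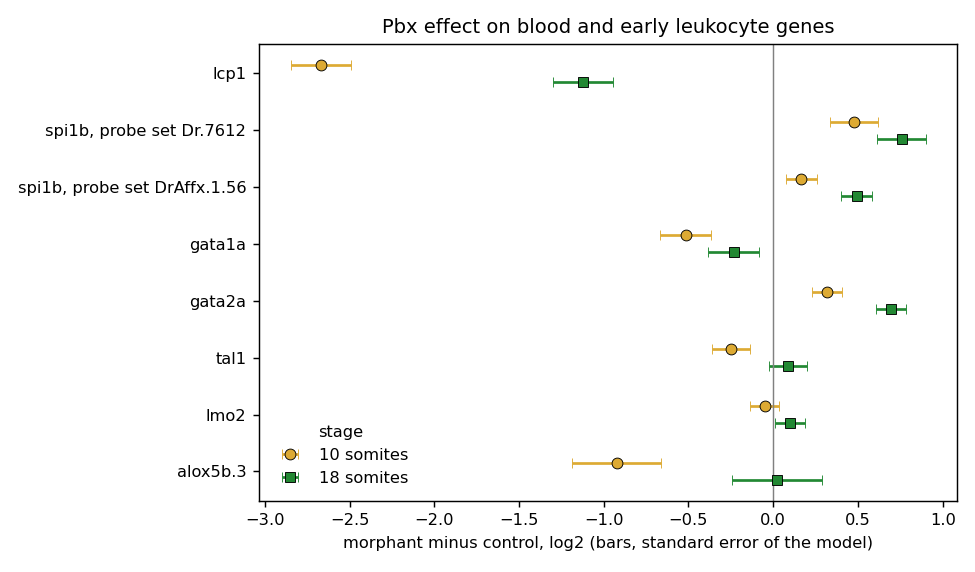
Morphant minus control difference (log2) of each member probe set at 10 somites (circles) and 18 somites (squares), with standard errors of the model. The lcp1 difference is the lowest at both stages (-2.67 and -1.12), and gata2a and both spi1b probe sets lie to the right of 0 at both.

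Of 19 other measured myeloid genes none passed the test at 10 somites (1 at an unadjusted p under 0.05), and 1 rose and none fell at 18 somites. Their differences at 10 somites ran from -0.18 to 0.19 with a median of -0.025. The leukocyte actin regulator gene coro1a was at 0.0023 ± 0.08 at 10 somites and 0.097 at 18 somites, and its second probe set gave -0.065 and -0.13. The neutrophil peroxidase gene mpx was at -0.15 and -0.074, the lysozyme gene lyz at -0.18 and -0.059, and the myeloid factor gene cebpa at 0.012 and 0.24. The gene called at 18 somites was cebpb, a bZIP factor of macrophages and many other cells, from 8.28 to 8.59 (0.32 ± 0.09, limma adjusted p = 0.0403). This call did not hold when control array 1 or 2 (adjusted p = 0.145 and 0.121) or morphant array 1 or 3 (0.0605 and 0.149) of that stage was left out, nor without control array 2 (0.0547) or morphant array 1 (0.0525) of the earlier stage. With the block cebpa was called too (0.0185). Control signals at 10 somites of many of the 19 genes lay within or below the tag range. Among them were lyz (6.02), laptm5 (5.05), ncf1 (4.58) and marco (4.05). For signals there background can hide a fall, so the narrow span of differences does not show that these genes were unchanged.

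Over the red cell, myeloid and shared lists together, 1 of 60 measured genes outside the members was called at 10 somites (1.67%, against 8.17% of all probe sets) and 3 at 18 somites (5%, against 12.5%). With the replicate block the counts were 5, all lower (13.2% of all probe sets were called), and 7, with 5 higher and 2 lower (18.1% of all). Without the block, the count at 18 somites was 1 when control array 1 or 2 of that stage was left out and 0 when morphant array 1 or 3 was, and the count at 10 somites was 2 when morphant array 2 of 18 somites was left out, which added hbae3. Of 12 vessel genes 2 fell at 10 somites, the venous receptor gene ephb4a (-0.35 ± 0.09, adjusted p = 0.0291) and the arterial factor gene hey2 (-0.34 ± 0.07, adjusted p = 0.00798). At 18 somites the apelin receptor gene aplnra rose by 0.35 ± 0.08 (adjusted p = 0.00766) and plvapb, whose product spans endothelial diaphragms, fell by 0.37 ± 0.07 (adjusted p = 0.00508). The endothelial receptor genes kdrl (0.055 and -0.0093) and tie1 (-0.095 and 0.039) were not called. The ephb4a call did not hold when control array 1 or 2 of 10 somites (0.122 and 0.0941) or morphant array 2 or 3 (0.113 and 0.0998) was left out, and that of aplnra did not hold without the 4 arrays numbered 1 (0.0572).

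**Figure D3:**
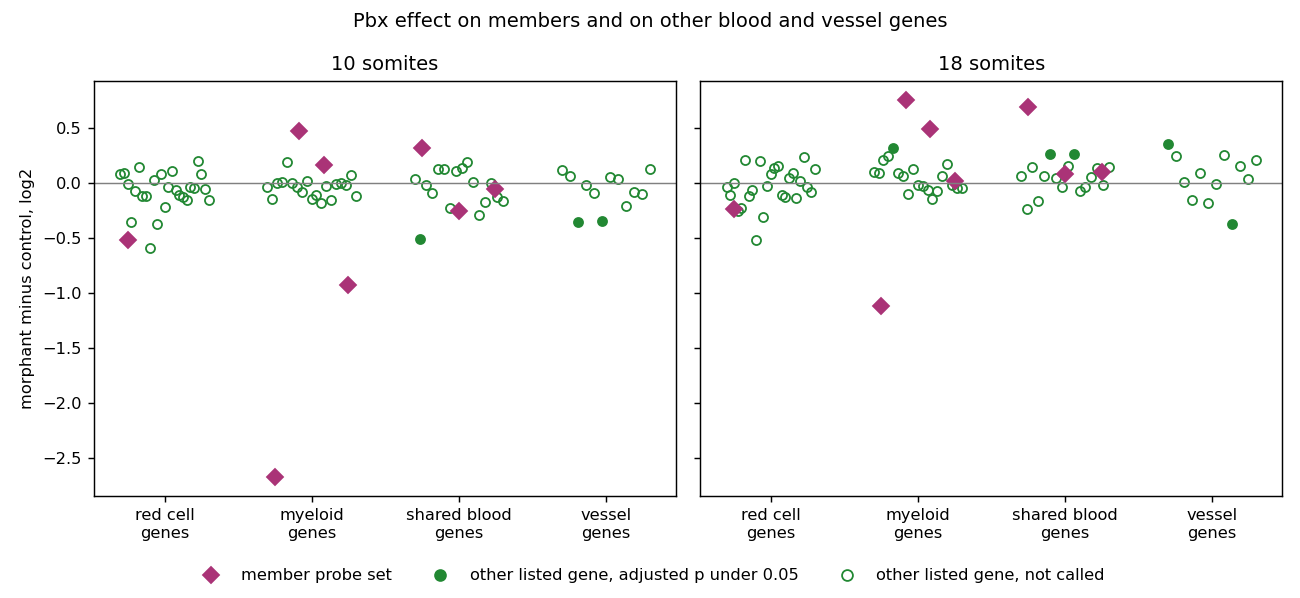
Morphant minus control difference (log2) at 10 and 18 somites of member probe sets (diamonds) and other listed genes (circles, filled where the adjusted p was under 0.05), by list. The other myeloid genes lie between -0.18 and 0.19 at 10 somites, many of them with control signals within or below the tag range. Of the myeloid members lcp1 lies at -2.67, alox5b.3 at -0.92 and the spi1b probe sets at 0.47 and 0.17.

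Genes of other tissues also differed between the same arrays. Of 8 brain and eye cell genes 5 fell and none rose at 10 somites, and the summed linear signal of the list ran from 7359 to 7474 in controls and 5886 to 6285 in morphants. At 18 somites 4 fell and none rose, with sums of 4680 to 4935 and 3852 to 4516. These counts use 1 probe set per gene. At 18 somites another probe set of the listed gene sox2 rose (0.31, limma adjusted p = 0.0163), and another of sox3 fell (-0.38, 0.0155). Of 7 hatching gland genes, which include klf17 of the red cell list, none passed the test at 10 somites. Their sum at that stage was 10933 to 11422 in controls and 11775 to 12585 in morphants. At 18 somites 1 hatching gland gene rose and 1 fell, and the sum was 5569 to 5865 against 6549 to 6774. Of 9 pronephros genes 1 fell at 10 somites and none passed at 18 somites, with overlapping sums of 1595 to 1817 in controls and 1488 to 1628 in morphants at 10 somites. At 18 somites the sums of 924 to 973 and 874 to 905 did not overlap. Of 9 epidermis genes 2 fell at 10 somites, and the sums of 65056 to 68279 and 65160 to 66128 overlapped. No summed level was at 0. The part of these tissues in the differences of the blood genes was not tested.

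The change from 10 to 18 somites in controls asks how these genes move in embryos injected with the control morpholino. After median centring 7 of 8 member probe sets were past the threshold in controls, 1 higher and 6 lower at 18 somites (50.9% of all probe sets were called), and 5 in morphants, 1 higher and 4 lower (53.4% of all). Nothing is read from these shares. The ranges of the stages did not overlap for 7 member probe sets in controls (58.3% of all) and 5 in morphants (60.5% of all). Centring raises every stage change by the gap between the stages' medians, and the changes below are relative to the median probe set of an array. As deposited, 14805 probe sets were called in controls.

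Among the members alox5b.3 and lcp1 had the largest changes with stage, in controls and in morphants. In controls alox5b.3 went from a median-centred mean of -0.096 ± 0.70 (SD, n = 3) to -3.10 ± 0.20, a change of -3.01 ± 0.26, and its signal at 18 somites lay below the tag range. In morphants the change was -2.08 ± 0.26. The signal of lcp1 went from 1.64 ± 0.17 to -0.78 ± 0.44 in controls, a change of -2.42 ± 0.18, and from -1.04 ± 0.27 to -1.93 ± 0.13 in morphants, a change of -0.89 ± 0.18. Its 4 groups stood in the order control at 10 somites, control at 18 somites, morphant at 10 somites and morphant at 18 somites. Of these neighbours the middle pair overlapped (-1.18 to -0.31 and -1.35 to -0.88). The 2 probe sets of spi1b changed by -0.16 ± 0.15 and -0.29 ± 0.09 in controls and by 0.11 ± 0.15 and 0.014 ± 0.09 in morphants. Both morphant groups overlapped for both probe sets.

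The GATA genes were lower at 18 somites. The change of gata2a was -0.78 ± 0.09 in controls and -0.42 ± 0.09 in morphants, and its groups ran from morphants at 10 somites (2.67 ± 0.09) through controls at 10 somites (2.36 ± 0.13) and morphants at 18 somites (2.25 ± 0.09) to controls at 18 somites (1.57 ± 0.14). In that order the middle pair overlapped. The change of gata1a was -0.39 ± 0.14 in controls and -0.12 ± 0.14 in morphants, and every group but the controls at 10 somites overlapped with its neighbour in the order of means. The gata1a call in controls was lost without any 1 of the 3 control arrays at 10 somites and without the control array at 18 somites numbered 1 or 2. The change of the second spi1b probe set lost its call without the control array numbered 2 at either stage.

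The partners tal1 and lmo2 went opposite ways. The change of tal1 was 0.50 ± 0.11 in controls and 0.82 ± 0.11 in morphants after centring, and -0.27 and 0.068 as deposited, so its direction rests on the centring. The change of lmo2 was -0.47 ± 0.08 in controls and -0.34 ± 0.08 in morphants and was lower in all 21 alternatives. For both genes the groups of a stage overlapped at 18 somites and stood apart from those at 10 somites.

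Globin genes rose with stage in the same control embryos, before and after centring. Of 25 measured red cell genes outside the members 15 rose and 4 fell after centring (24.4% of all probe sets rose and 26.5% fell), with a median of 0.29 beside -0.016 over all probe sets. As deposited 8 of the 15 were higher at 18 somites and 7 were lower, and the median of the 25 was -0.47. The beta globin gene hbbe3 rose by 3.23 ± 0.21 (limma adjusted p = 6e-08), hbae3 by 2.04 ± 0.25 (1.91e-05), the embryonic beta globin gene hbbe2 by 1.69 ± 0.15 (1.24e-06) and alas2 by 1.26 ± 0.11 (1.52e-06). These 4 kept their direction as deposited. After centring urod and slc4a1a rose by 0.61 ± 0.08 and 0.68 ± 0.13, but both were below 0 as deposited, and klf17 fell by 0.60 ± 0.09, while nfe2 was at 0.13 (adjusted p = 0.19). In morphants 13 rose and 3 fell after centring, 9 of the 13 being higher as deposited, and the rises of hbbe3, hbae3 and hbbe2 were 3.28 ± 0.21, 2.09 ± 0.25 and 1.85 ± 0.15, that of alas2 was 1.03 ± 0.11, and that of tmem14ca, a gene of haem synthesis, was 1.17 ± 0.11. The difference between the stages' effects was called for none of the 25 by limma (2 at an unadjusted p under 0.05, and none with the replicate block).

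**Figure D4:**
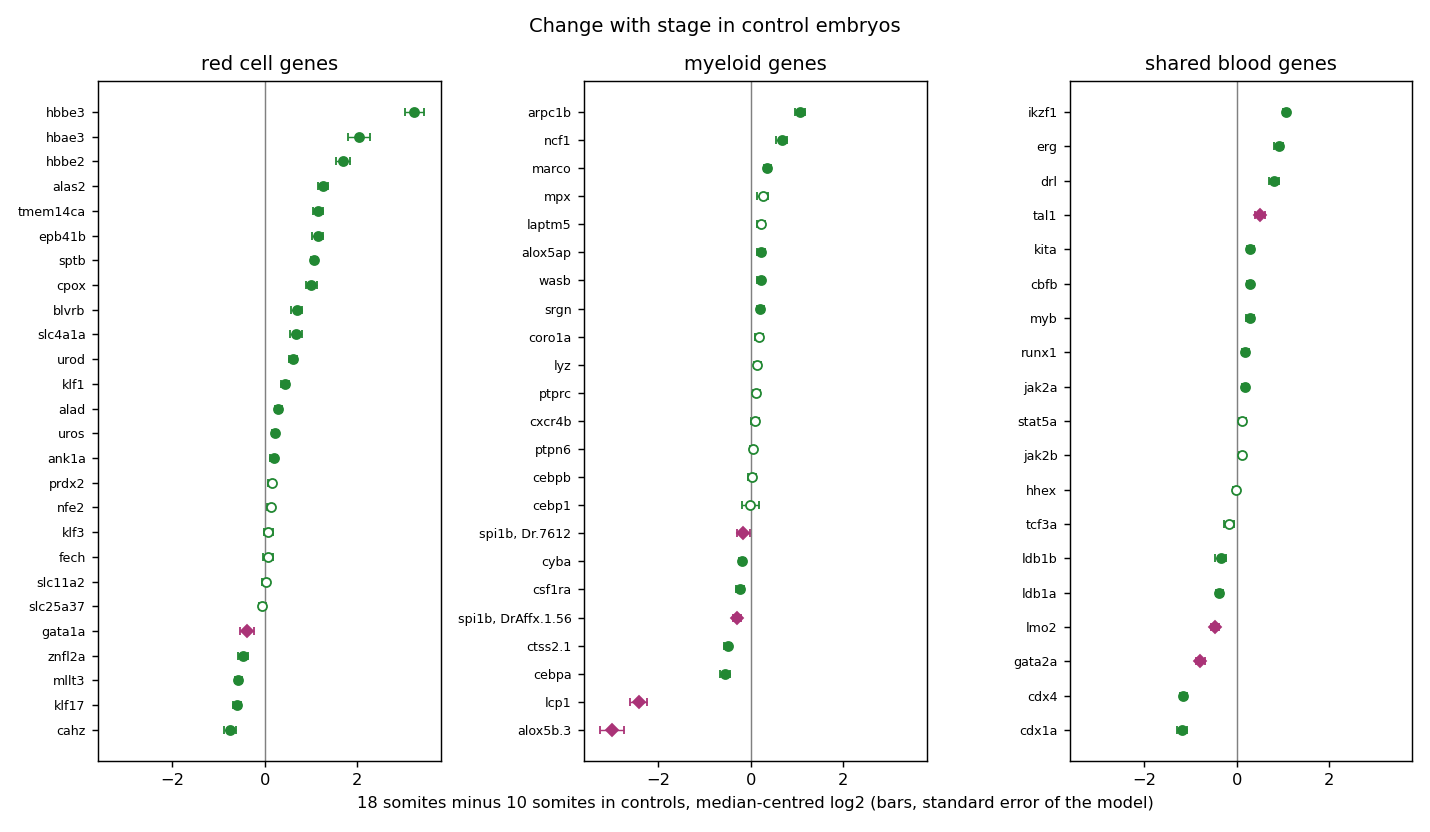
Change from 10 to 18 somites in controls (median-centred log2, standard errors of the model) of member probe sets (diamonds) and other listed genes (circles, filled where the adjusted p was under 0.05). The globin genes hbbe3 and hbae3 lie at 3.23 and 2.04, while gata1a lies at -0.39 and lcp1 and alox5b.3 at -2.42 and -3.01.

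Of the 19 other myeloid genes 6 rose and 4 fell with stage in controls after centring. Among the 6 only arpc1b was higher at 18 somites as deposited, and the other 5 were lower. The actin nucleation subunit gene arpc1b rose by 1.07 ± 0.11 (adjusted p = 4.14e-06) and ncf1, a subunit of the phagocyte oxidase, rose by 0.67 ± 0.12 (adjusted p = 0.000515), though ncf1 was below 0 as deposited. Both signals lay within the tag range. The genes cebpa and ctss2.1, a cathepsin gene, fell by 0.55 ± 0.11 and 0.50 ± 0.07. The values of mpx, lyz and coro1a were 0.26, 0.14 and 0.18 (adjusted p = 0.084, 0.104 and 0.0887), all below 0 as deposited, and the second coro1a probe set gave 0.76 (6.28e-07). Each of 3 more mpx probe sets missed the threshold in controls, at 0.061, -0.0017 and 0.20. In morphants the mpx probe set used was at 0.31 (adjusted p = 0.0373) and the others at -0.056, -0.29 (0.00422, lower) and 0.24 (0.0398), so the probe sets of this gene disagree in sign. The mpx change was called when control array 1 of 10 somites was left out (0.0222) and when control array 2 of 18 somites was (0.0394). It was also called with the replicate block (0.0195), whose pairing was not tested between stages. The coro1a change was called when control array 3 of 10 somites was left out (0.0159) and with array weights (0.0307). It was also called as the mean of the gene's probe sets (0.47, adjusted p = 2.22e-05). In morphants 10 rose, 1 of them higher as deposited, and 2 fell, with arpc1b at 1.29, ncf1 at 0.72, ctss2.1 at -0.53 and cebpa at -0.34. The cebpa call in morphants did not hold after quantile normalization (-0.20, adjusted p = 0.144), without morphant array 3 of 10 somites (0.101) or without morphant array 1 of 18 somites (0.0871).

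Of the 16 other shared blood genes 8 rose and 4 fell in controls after centring, and of the 8 only ikzf1, erg and drl were higher as deposited. The genes ikzf1, erg, an ETS factor of blood and vessel cells, and drl rose by 1.06 ± 0.07, 0.91 ± 0.10 and 0.81 ± 0.11, and the caudal genes cdx1a and cdx4 fell by 1.19 ± 0.11 and 1.15 ± 0.08. The genes myb and runx1 rose by 0.28 ± 0.09 and 0.19 ± 0.07 (adjusted p = 0.0146 and 0.047) and were below 0 as deposited. The runx1 call did not hold when any 1 of 8 of the 12 arrays was left out (adjusted p up to 0.18), nor that of myb without control array 3 of 10 somites (0.0511) or control array 2 of 18 somites (0.051). Among 12 vessel genes 6 rose and 3 fell in controls after centring, with kdrl at 0.93, the only one of the 6 that was higher as deposited, tie1 and vegfaa at 0.54 each, both below 0 as deposited, and aplnra at -0.54.

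The difference between the stages' effects, the effect at 18 somites minus that at 10 somites, was above 0 for all 8 member probe sets. It was 1.55 ± 0.25 for lcp1, 0.95 ± 0.37 for alox5b.3, 0.38 ± 0.13 for gata2a, 0.33 ± 0.16 for tal1, 0.28 ± 0.20 and 0.33 ± 0.13 for spi1b, 0.28 ± 0.21 for gata1a and 0.15 ± 0.12 for lmo2. No member probe set was past the adjusted threshold with limma, against 0.0323% of all probe sets. With the replicate block 2 were, lcp1 and alox5b.3 (0.335% of all). Without the block 4 of the 8 were at an unadjusted p under 0.05, against 1257 of all 15502 probe sets. The members were picked with results of these arrays known, so nothing is read from these counts. For lcp1 the morphant signal at 18 somites lay at background, which bounds how far below the control it can read. For alox5b.3 both groups lay below the tag range at 18 somites (means of 3.42 in controls and 3.44 in morphants). No effect on alox5b.3 could be read at that stage, and its 0.95 rests on the difference at 10 somites. The member probe sets share their arrays, and the median over all probe sets was 0.0078. Medians of the listed genes outside the members were also above 0. They were 0.042 for red cell, 0.099 for myeloid, 0.12 for shared blood and 0.17 for vessel genes.

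Across the 12 arrays after centring, the probe sets of other genes with the highest Pearson correlation to each member were sought among 7335 or 7336 probe sets with a single symbol in the upper 60% of mean signal. The correlations rest on 12 arrays in 4 groups, so they hold the differences between groups as well as those within them. For lcp1 the closest was rfc4, a replication factor C subunit gene, at r = 0.97, whose own difference at 10 somites was -0.38. For gata2a it was hand2, a bHLH gene of lateral mesoderm, at 0.98, with differences of 0.42 at 10 somites and 0.77 at 18 somites, followed by irx1b at 0.98. For gata1a the 3 closest were the mitotic genes plk1 (0.93), cdc20 and ccnb3 (0.92 each), with differences of -0.30, -0.17 and -0.19 at 10 somites. For the spi1b probe sets they were scaper (0.94) and nr3c1 (0.92), for tal1 bdh2 (0.99), for lmo2 ppp2cab (0.98) and for alox5b.3 nosip (0.99). Among members the 2 spi1b probe sets correlated at 0.86, lmo2 with alox5b.3 at 0.93 and tal1 with lmo2 at -0.82. The correlation of gata1a with gata2a was 0.011 and that of lcp1 with the first spi1b probe set was -0.50.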

How the data were processed

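Total embryo RNA was hybridised to Affymetrix zebrafish genome arrays, 12 arrays in 4 groups of 3. The deposited values are log2 signals per probe set; the submitters' processing notes name RMA and affy, with no version, and do not say which arrays were normalized jointly. Without the 115 AFFX control probe sets 15502 were tested, of which 10795 had 1 symbol, 135 several and 4572 none in the platform annotation. Gene IDs of 10711 matched RefSeq genes of GRCz12tu, which served for names alone and updated 1 symbol.

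One mean per group was fitted with limma 3.58.1 in R 4.3.3 (lmFit, eBayes; 8 residual and 6.06 prior degrees of freedom), with p-values two-sided and adjusted by Benjamini-Hochberg over all probe sets; calls are at 0.05. The fit was tested on simulated data. Stage changes were fitted after subtracting each array's median. A listed gene was represented by its probe set with the highest mean.

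Members and gene lists were chosen with earlier results of these data known. Named genes were the members, a panel (of which etv2, fli1a, spi1a and cdh5 have no probe set of their own here), up to 4 called genes with the largest difference per list and contrast, and the 3 probe sets most like each member. The red cell genes blvrb and cahz are named for their calls with the replicate block. The labels do not say that replicates came from separate clutches, so p-values reflect only how these arrays vary, which may be technical. Same-numbered control and morphant arrays of a stage deviated together from their group means over all probe sets. Their correlation r ran from 0.21 to 0.55 in 6 of 6 pairs. The control array numbered 3 at 10 somites was nearly as close to a morphant array of another number (0.23) as to its own (0.25). For the other control arrays no r with a morphant array of another number at that stage was above -0.017. Replicate numbers were therefore taken as pairs, and blocked values are given where they change a call or count. Whether same-numbered arrays of different stages deviate together was not tested, so the pairing is unchecked for blocked stage changes. Other alternatives were other scalings, array weights, a low-signal filter, a mean-variance trend, fits of the groups compared, means of a gene's probe sets, leaving out each array and, chosen after the data were seen, the 4 arrays numbered 1. The number of arrays limits the precision.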

Additional observations from a re-analysis of the deposited data

How the results depend on the processing

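At 10 somites the number of probe sets called (1267) was 2447 with array weights, 2040 with the replicate block and 333 without the 4 arrays numbered 1, a setting chosen after the data were seen, and 643 to 1447 when any 1 array was left out. At 18 somites (1935) it was 677 without those 4 arrays and 1213 to 1987 without 1 array. For the difference between the stages' effects (5) it was 14 after centring, 11 after quantile normalization, 32 with array weights, 3 with the 60% of probe sets of highest mean, 24 with a trend, 52 with the block, 10 with gene means, 0 without the 4 arrays and 1 to 20 without 1 array. Stage changes gave 14805, 4707 and 4585 calls in controls as deposited, with the filter and with gene means, and 14773, 5112 and 4964 in morphants, since the filter and gene means test fewer features.

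Member calls at 10 somites (4) were 2 after quantile normalization, with only the groups compared and without the 4 arrays, and 1 to 4 without 1 array. Those for the difference between effects (0) were 1 after centring, with array weights, with a trend and with gene means, 2 with the block and 0 to 1 without 1 array. The stage change in morphants had 3 with the filter, which leaves tal1, alox5b.3 and the first spi1b probe set untested. No member probe set still tested lost its call there. Calls among the 60 other blood genes were 0 with the filter, 5 with the block, 0 without the 4 arrays and 1 to 2 without 1 array at 10 somites. The filter tests fewer of these genes and leaves out cdx1a, the gene called in the main fit. At 18 somites they were 0 with only the groups compared, 7 with the block, 0 without the 4 arrays and 0 to 4 without 1 array. With the filter, and so of fewer genes tested, 23 and 20 were called for the stage change in controls and morphants.

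As deposited, stage changes in controls turned to -0.27 for tal1, -0.15 for urod, -0.091 for slc4a1a, -0.64 for nfe2, -0.095 for ncf1, -0.51 for mpx, -0.62 for lyz, -0.59 for coro1a, -0.58 for runx1, -0.49 for myb and -0.23 for both tie1 and vegfaa. In morphants, outside the members, only up to 4 called genes with the largest change per blood and vessel list were followed. Their changes turned to -0.025 for ncf1, -0.076 for nr2f2, -0.092 for tek and -0.092 for tie1. Other genes called higher in morphants were lower as deposited too, such as mpx (means of 6.54 at 10 somites and 6.11 at 18 somites). Of 165 member values over all settings 164 moved by no more than 1 SD at each of 10 and 18 somites. The SD is that of the probe set within groups, so alox5b.3 at -0.52 instead of -0.92 counts as unmoved. Many settings cannot change a difference within a stage. These are the trend, the filter, the block, fits of the groups compared and leaving out an array of the other stage. The count is therefore no measure of stability. The replicate block changed the calls of hbae3 at both stages, blvrb at 10 somites, cahz at 18 somites and tmem14ca at 18 somites (limma adjusted p = 0.212, and 0.046 with the block). It also changed those of ikzf1 and spi1b at 10 somites and cebpa at 18 somites. Further changes were those of lcp1 and alox5b.3 for the difference and of mpx and laptm5 for the stage change in controls. For laptm5 the limma adjusted p was 0.0613, and 0.0354 with the block. The block changed no other call of a blood, vessel or member gene named in the text. Where no construction is named the cause was not tested. Signals near the tag range limit what can be seen of tal1, of lcp1 and alox5b.3 at 18 somites and of many myeloid genes. The same holds of some red cell and shared blood genes. Control means lay within that range for runx1 and nfe2 at both stages and for ikzf1, erg and hbbe2 at 10 somites.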
